A study of Mus musculus with 10 samples.

Results

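BCL2 family cell survival regulators were compared between the brains of Aldara-treated and control mice. The set holds 10 genes, chosen by name: the survival genes Bcl2, Bcl2l1 and Mcl1, the pore-forming effectors Bax and Bak1, and the BH3-only genes Bcl2l11, Bid, Bmf, Bbc3 and Pmaip1. Each of 9 genes had 1 probeset of its own on the array, out of 23410 probesets that carried at least 1 gene symbol and 28856 in all. None of these 9 was shared with another gene. Bax had no probeset under its symbol in the annotation used and was not analysed here. Both groups were female mice of the C57BL/6 strain of 6 to 8 weeks. The treated group received 80 mg of Aldara cream, whose active agent is 5% imiquimod, a small molecule that activates the RNA-sensing receptor TLR7, on shaved back skin every 24 h for 5 applications, and the control group received the same amount of aqueous cream. Whole brains were taken after perfusion, 24 h after the last application, and RNA from each of 5 mice per group was put on its own Affymetrix mouse gene array. The cream base differs between the groups as well as the imiquimod, so their effects cannot be told apart here.

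Proteins of the BCL2 family decide whether the outer mitochondrial membrane is opened, the step that commits a cell to the mitochondrial route of apoptosis. BAX and BAK form the pore, BCL2, BCL-XL (from Bcl2l1) and MCL1 hold them back, and BH3-only proteins such as BIM (from Bcl2l11), BID, BMF, PUMA (from Bbc3) and NOXA (from Pmaip1) report damage or loss of growth factor by binding the other classes. MCL1 is short-lived and is needed by neural precursors and many leukocytes, while BCL-XL is the main survival protein of mature neurons. Much of the family's control lies in protein turnover, cleavage and binding, which an RNA array does not read.

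Values are log2 expression values made by the authors with RMA, so a difference of 1 is a doubling. They ran from 4.73 to 14.56 over the table. The median array value of the tested probesets was 8.10 to 8.14 in control mice and 8.16 to 8.19 in Aldara-treated mice. Correlations between arrays were 0.995 to 0.999 within a group and 0.980 to 0.988 across groups. The groups were compared with limma, with Benjamini-Hochberg adjustment over all 23410 probesets, and a gene is called higher or lower at an adjusted p under 0.05. In this comparison 33.4% of all probesets were called, 12.4% higher and 21.0% lower. The higher share of the called probesets was 37.1%, against 19.3% once every array was shifted to the same median and 58.1% once the median difference was taken as 0. The labelled tissue showed in high neuronal values, such as a log2 value of 13.36 ± 0.030 (SD, n = 5) for Snap25 in control mice.

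Of the 9 measured members, 4 were higher after Aldara (Mcl1, Bak1, Bcl2l11 and Bcl2), 1 was lower (Bbc3) and 4 did not pass the test (Bid, Bmf, Pmaip1 and Bcl2l1). Against the background of 12.4% higher and 21.0% lower, 9 genes are too few to set the family apart from other genes by these counts. The median log2 difference of the 9 was 0.091, and that of all tested probesets was -0.041. All changes were small. The largest, that of Mcl1, was 1.31-fold, and 3.05% of all tested probesets were at least 1.5-fold higher. The groups did not overlap for 3 members (Mcl1, Bak1 and Bcl2l11), next to 25.8% of all probesets, so a lack of overlap does not set the members apart from other genes.

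**Figure D1:**
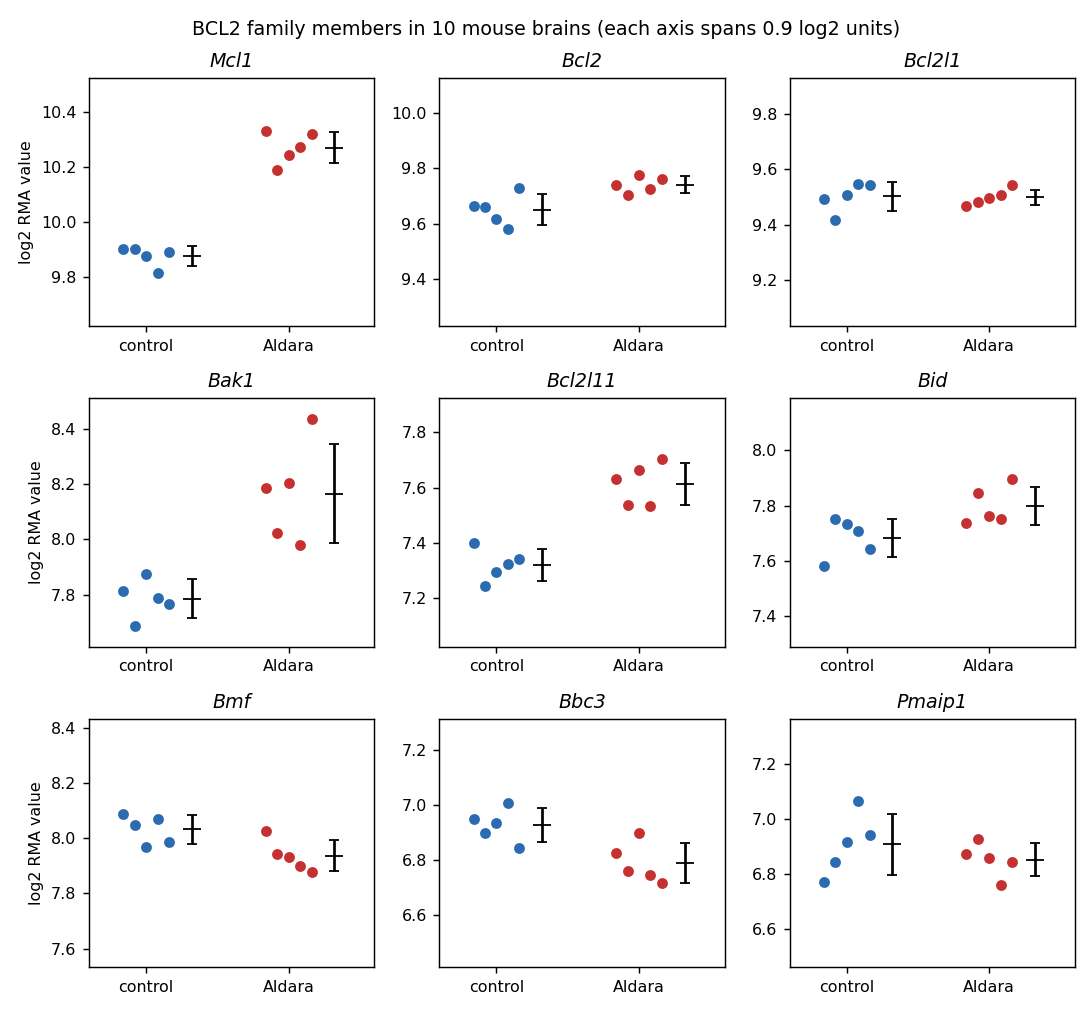
Log2 RMA value (vertical axis, 0.9 log2 units in every panel) of 9 BCL2 family members in 5 control brains (blue points, replicates 1 to 5 from left to right) and 5 Aldara brains (red points, same order). The bars give the mean and SD of each group. The groups lie apart for Mcl1, Bak1 and Bcl2l11 and overlap in the other 6 panels.

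Among the survival genes, Mcl1 had the clearest increase. Its log2 values in control replicates 1 to 5 were 9.90, 9.90, 9.88, 9.82 and 9.89, and in Aldara replicates 1 to 5 they were 10.33, 10.19, 10.24, 10.27 and 10.32. Every treated brain lay above every control brain, with a gap between the groups wider than the range within either. The means were 9.88 ± 0.036 (SD, n = 5) and 10.27 ± 0.057 (SD, n = 5), a log2 difference of 0.39 (standard error 0.033, adjusted p = 2.9e-06 from limma) or 1.31-fold (95% interval 1.25 to 1.38). Of all tested probesets, 2.32% had a smaller adjusted p and 4.88% a larger difference in either direction. The call held in all 22 fits run on this gene, with differences of 0.34 to 0.43.

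Bcl2, the founding survival gene of the family, was only slightly higher in Aldara-treated mice. It stood at 9.66, 9.66, 9.62, 9.58 and 9.73 in control replicates 1 to 5 and at 9.74, 9.70, 9.78, 9.72 and 9.76 in Aldara replicates 1 to 5. Control replicate 5 lay among the treated brains, so the groups overlapped. The log2 difference was 0.091 (standard error 0.032, adjusted p = 0.046 from limma), or 1.07-fold (95% interval 1.01 to 1.12). The call was lost after centring (every array shifted to 1 median, difference 0.043, adjusted p = 0.25) with the replicate number as a block (adjusted p = 0.071) and when the probesets without a symbol were tested as well (adjusted p = 0.053). Bcl2 was called in 11 of 22 fits. It held in 2 of 10 fits that left out 1 array, those without control replicate 5 or Aldara replicate 2, and without any other array the difference was 0.073 to 0.095.

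Bcl2l1, which encodes BCL-XL, showed no detectable difference. Its log2 value was 9.50 ± 0.052 (SD, n = 5) in control mice and 9.50 ± 0.028 (SD, n = 5) in Aldara-treated mice, with ranges of 9.42 to 9.55 and 9.47 to 9.54. The treated values all lay inside the control range. The interval of the fold change, 0.953 to 1.05, leaves room for a change of about 5% either way (adjusted p = 0.95 from limma). The sign of this near-zero difference turned with the median difference set to 0, and on leaving out control replicate 4, control replicate 5, Aldara replicate 1 or Aldara replicate 2, while none of its fits passed.

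Of the effectors, Bak1 was higher and varied most between treated mice. BAK sits in the outer mitochondrial membrane of resting cells and is held by MCL1 and BCL-XL. Its log2 values were 7.81, 7.69, 7.88, 7.79 and 7.77 in control replicates 1 to 5 and 8.19, 8.02, 8.20, 7.98 and 8.44 in Aldara replicates 1 to 5. The groups did not overlap, and Aldara replicate 5 was the highest. The SD was 0.070 in control mice and 0.18 in Aldara-treated mice (n = 5 each). The log2 difference was 0.38 (standard error 0.075, adjusted p = 0.0020 from limma), or 1.30-fold (95% interval 1.16 to 1.46). Leaving out each array in turn gave differences of 0.31 to 0.43, the lowest without Aldara replicate 5, and each of these fits passed.

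Among the BH3-only genes, Bcl2l11 was higher. Its product BIM binds every survival protein of the family and is the main BH3-only protein in the removal of leukocytes. The log2 values were 7.40, 7.24, 7.29, 7.32 and 7.34 in control replicates 1 to 5 and 7.63, 7.54, 7.66, 7.53 and 7.70 in Aldara replicates 1 to 5. Again no treated brain reached down to the control range. The log2 difference was 0.29 (standard error 0.041, adjusted p = 2.0e-04 from limma), or 1.23-fold (95% interval 1.15 to 1.31), and it passed in all 21 fits run on it.

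Bid, whose product carries the signal of death receptors to mitochondria after cleavage by caspase-8, did not pass. It had 7.58, 7.75, 7.73, 7.71 and 7.64 in control replicates 1 to 5 and 7.74, 7.84, 7.76, 7.75 and 7.90 in Aldara replicates 1 to 5. The treated values were mostly at or above the top of the control range, with a narrow overlap from 7.739 to 7.751. The log2 difference was 0.12 (standard error 0.042, adjusted p = 0.053 from limma), or 1.08-fold (95% interval 1.02 to 1.15). It passed with the median difference set to 0 (adjusted p = 0.015), when tested among probesets with 1 symbol only (adjusted p = 0.0497), with a gene's probesets averaged (adjusted p = 0.049), and without control replicate 2 (adjusted p = 0.041) or Aldara replicate 1 (adjusted p = 0.049).

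Bbc3, which encodes the p53 target PUMA, was the member that was lower. Its mean lay at percentile 28.1 of the tested probesets, and its signal over background is unknown. Its log2 values were 6.95, 6.90, 6.93, 7.01 and 6.84 in control replicates 1 to 5 and 6.83, 6.76, 6.90, 6.74 and 6.72 in Aldara replicates 1 to 5. The groups overlapped through control replicate 5 and Aldara replicate 3. The log2 difference was -0.14 (standard error 0.041, adjusted p = 0.023 from limma), or 0.909-fold (95% interval 0.854 to 0.968). The call was lost with the median difference set to 0 (difference -0.096, adjusted p = 0.11) and on dropping control replicate 1 or 4 or Aldara replicate 4 or 5, where the difference was -0.13 to -0.12 and the adjusted p 0.051 to 0.057.

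Bmf and Pmaip1 did not pass. BMF is a BH3-only protein that is released when a cell loses its anchorage, and its log2 value was 8.03 ± 0.052 (SD, n = 5) in control mice and 7.94 ± 0.056 (SD, n = 5) in Aldara-treated mice, a difference of -0.096 (standard error 0.036, adjusted p = 0.057 from limma). Its control values ran from 7.97 to 8.09 and its treated values from 7.88 to 8.02, so most treated brains lay below the control range. Bmf passed as lower with centred arrays (adjusted p = 0.0081), with quantile normalisation (adjusted p = 0.0083), and without control replicate 3 (adjusted p = 0.042) or Aldara replicate 1 (adjusted p = 0.024). Pmaip1 encodes NOXA, which binds MCL1 and directs it to breakdown. It ran from 6.77 to 7.07 in control mice and from 6.76 to 6.93 in Aldara-treated mice, and its difference of -0.056 (standard error 0.051, adjusted p = 0.43 from limma) lay within the spread between mice. Its fold interval was 0.890 to 1.04. The mean of Pmaip1 lay at percentile 28.5 of the tested probesets, so its signal was low as well.

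Each member was also tested by itself, without adjustment, by a two-sided exact permutation test that counted all 252 ways to assign the mice to the groups. This exact test gave p = 0.00794 for Mcl1, Bak1 and Bcl2l11, the smallest p that 5 against 5 mice allow. Any gene whose groups do not overlap gets this p, and 25.8% of all probesets had such groups. For these genes the test therefore restates the lack of overlap and is not separate evidence. The exact p was 0.0159 for Bbc3 and Bid, 0.0238 for Bcl2, 0.0397 for Bmf, 0.373 for Pmaip1 and 0.865 for Bcl2l1.

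Stretches of promoter sequence are shown for the 3 members that were higher without overlap, the members on which the comparison turns. Each is the 250 bases before a transcription start in RefSeq (build GRCm38.p6), printed 5′ to 3′ on the gene's own strand, with GC boxes (GGGCGG) and the FoxO core motif (TGTTTAC) in capitals wherever they occur on either strand. Bcl2l11 has another RefSeq start in the table, which is not printed.
Mcl1 (chr3:95658471-95658720, + strand): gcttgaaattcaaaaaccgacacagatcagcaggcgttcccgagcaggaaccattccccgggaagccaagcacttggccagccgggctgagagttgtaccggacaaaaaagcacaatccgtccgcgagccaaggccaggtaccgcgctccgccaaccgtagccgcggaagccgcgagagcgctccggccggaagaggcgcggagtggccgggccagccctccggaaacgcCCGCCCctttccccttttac
Bak1 (chr17:27028628-27028877, - strand): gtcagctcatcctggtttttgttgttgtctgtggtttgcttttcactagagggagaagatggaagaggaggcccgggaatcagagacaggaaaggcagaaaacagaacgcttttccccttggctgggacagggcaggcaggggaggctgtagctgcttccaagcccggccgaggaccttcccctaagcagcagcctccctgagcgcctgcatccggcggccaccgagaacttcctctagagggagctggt
Bcl2l11 (chr2:128125788-128126037, + strand): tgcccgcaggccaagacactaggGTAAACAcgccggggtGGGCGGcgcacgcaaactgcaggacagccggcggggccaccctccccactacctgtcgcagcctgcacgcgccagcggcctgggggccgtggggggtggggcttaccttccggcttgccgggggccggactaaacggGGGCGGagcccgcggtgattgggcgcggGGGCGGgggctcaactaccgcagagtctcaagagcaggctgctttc
Both strands were searched for 4 motifs in these windows and in 32851 windows of the same length from all promoters in the table, without those on the chromosome of Pmaip1. The windows had a GC content of 64.4% for Mcl1, 58.4% for Bak1 and 72% for Bcl2l11, against a median of 52.4% over all windows. A GC box was found 1 time in the Mcl1 window and 3 times in that of Bcl2l11. Over the 16 windows of the 9 members in the table, Bax included, 9 hold a GC box, against 32.7% of all windows. Those windows belong to Bax, Bbc3, Bcl2, Bcl2l11, Bid and Mcl1. Bbc3 and Bcl2l11 each have more than 1 among them, some of Bbc3 overlapping, so they are not separate cases. The FoxO core was found in 2 of the 16, the Bcl2l11 window printed above and a window of Bbc3, the member that was lower, and 3.17% of all windows hold it. The core of the interferon-stimulated response element (GAAA, any 2 bases, GAAA, in 2.98% of all windows) and the gamma-activated sequence (TTCNNNGAA, in 7.02%) were found in none of the 16. These matches describe the letters of these windows only, and sequence further away was not searched.

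The members did not shift as one block. Differences between members on the same array do not depend on a shift of a whole array, although only their change between groups can be read, since probes differ in brightness. The log2 value of Mcl1 minus that of Bcl2 was 0.16 to 0.26 in control mice and 0.47 to 0.59 in Aldara-treated mice, a shift of 0.30 with no overlap. Such a shift follows from the log2 differences of the 2 genes given above and is not separate evidence. Bcl2l11 minus Bcl2l1 shifted by 0.30 as well, from a range of -2.22 to -2.10 to a range of -1.97 to -1.83. Bak1 minus Mcl1 stayed within its spread, with -2.22 to -2.00 in control mice, -2.29 to -1.88 in Aldara-treated mice and a shift of -0.011. The SD of this last difference was 0.085 in control mice and 0.15 in Aldara-treated mice (n = 5 each).

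**Figure D2:**
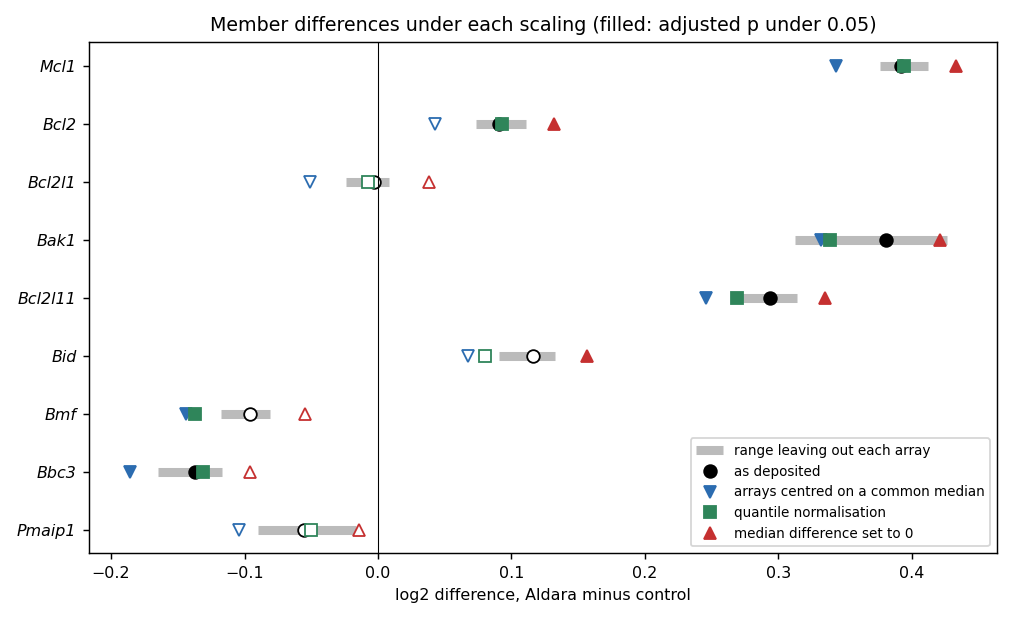
Log2 difference between Aldara and control mice (horizontal axis) for 9 members with the deposited values (black circles) and under 3 other scalings, filled where the adjusted p was under 0.05. Grey bars give the range when each array was left out. Mcl1, Bak1 and Bcl2l11 stay between 0.25 and 0.43 under these scalings, while Bcl2, Bid, Bmf and Bbc3 pass under some and not under others.

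Aldara replicate 5 was at the edge of its group for most members. It had the highest treated value for Bak1, Bcl2l11, Bid and Bcl2l1 and the lowest for Bbc3 and Bmf. Without it, Mcl1, Bak1 and Bcl2l11 were still higher, while Bcl2 and Bbc3 did not pass. This loss was not particular to Aldara replicate 5. Both calls were also lost without control replicate 1, control replicate 4 or Aldara replicate 4.

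The brains of Aldara-treated mice also held more RNA of genes used as leukocyte markers. In whole tissue fewer or more cells of a type and less or more RNA per cell cannot be told apart. Ptprc, the CD45 gene of all leukocytes, had a log2 difference of 3.05. By the paper's account resident microglia also carry CD45, at intermediate levels, so Ptprc does not separate infiltrating from resident cells. In a separate experiment with flow cytometry, the paper counted more cells with high CD45, natural killer cells and macrophages in the brain after 5 applications. Of 9 measured markers of monocytes and macrophages, 8 were higher, and which cells carried this RNA was not tested. The summed unlogged level of those 9 markers was 1406 to 1514 in control mice and 7917 to 9857 in Aldara-treated mice. For 5 natural killer cell markers, all higher, the sum went from 354 to 414 in control mice up to 789 to 1284 in Aldara-treated mice. Markers of endothelium were higher for 5 of 6 genes (3236 to 3670 against 4815 to 5279). Those of microglia were higher for 3 of 5 with Siglech lower (2062 to 2304 against 2564 to 3216). Of 8 neutrophil markers 1 was higher, Csf3r, by a log2 difference of 1.14, and 7 did not pass. The neutrophil sum (684 to 752 against 857 to 881) therefore mostly follows Csf3r. By the paper's flow cytometry, neutrophil numbers did not differ significantly at any time point. All 8 neuronal markers were lower, with sums of 39342 to 39744 in control mice and 35893 to 36863 in Aldara-treated mice. Their log2 differences were small, from -0.21 to -0.077, next to a median of -0.041 over all tested probesets. Over all probesets, 12.4% were higher and 21.0% lower. The marker calls were not followed under the other scalings. T cell markers (2 higher and 1 lower of 5) and B cell markers (1 higher of 3) were mixed. So were astrocyte markers (3 higher and 2 lower of 6) and oligodendrocyte markers (1 higher and 1 lower of 5). The astrocyte differences ran from -0.57 for Slc1a2 to 1.73 for Gfap. The part of all these cell types in the differences of the BCL2 family was not tested.

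Of the other BCL2 relatives on a fixed list, the Bcl2a1 copies stood apart from the rest. BCL2A1 (also called A1 or BFL1) is a survival protein of leukocytes and other cells that NF-kB and cytokines induce. The mouse has several nearly identical copies of the gene, and 3 probesets are shared by Bcl2a1a, Bcl2a1b, Bcl2a1c and Bcl2a1d, so the copies cannot be told apart. On the one with the largest difference, the log2 values were 6.41, 6.99, 7.11, 6.30 and 6.39 in control replicates 1 to 5 and 8.19, 8.12, 8.43, 7.99 and 8.76 in Aldara replicates 1 to 5. The lowest treated brain lay well above the highest control brain, and Aldara replicate 5 was again the highest. The 3 shared probesets had log2 differences of 1.66 (standard error 0.18), 1.29 (standard error 0.13) and 1.38 (standard error 0.13), with a highest adjusted p of 2.8e-05 from limma. These are 3.16-fold, 2.45-fold and 2.60-fold, larger than the difference of any of the 9 members. Each passed in all 19 fits in which it was checked, which leave out the fit on brighter probesets. Bcl2a1c also had a probeset of its own, named after its values were seen, with 5.28 to 5.73 in control mice and 6.56 to 7.18 in Aldara-treated mice, a log2 difference of 1.31 (standard error 0.13).

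Of the 13 further relatives on the list with a probeset of their own, which do not include Bcl2a1c, none was higher and 3 were lower. Over all probesets, 12.4% were higher and 21.0% lower. Hrk, a BH3-only gene of neurons, was lower by a log2 difference of -0.15 (standard error 0.039, adjusted p = 0.0098 from limma), with 9.48 to 9.63 in control mice and 9.32 to 9.46 in Aldara-treated mice. Bcl2l10, a survival gene best known from oocytes, was lower at -0.18 (standard error 0.049) on a dim probeset, and Bnip3, a mitophagy receptor related to BH3-only proteins, at -0.098 (standard error 0.031) and, on its other probeset, at -0.18 (standard error 0.029). The remaining 10 did not pass: Bcl2l2 (BCL-W), the effector relative Bok, the BH3-only genes Bad and Bik, and Bcl2l12, Bcl2l13, Bcl2l14, Bcl2l15, Becn1 and Bnip3l. Their differences ran from -0.14 for Bad to -0.00089 for Bcl2l14. The median of the 13 was -0.064, near that of all tested probesets, and the count of lower genes changed with the scaling, to 9 after centring, 5 after quantile normalisation and 0 where the median difference was 0. Bnip3 was called in 5 of 10 fits that left out 1 array, and did not pass without replicates 1 or 2 of the control or 1, 2 or 4 of the Aldara group (adjusted p up to 0.071).

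**Figure D3:**
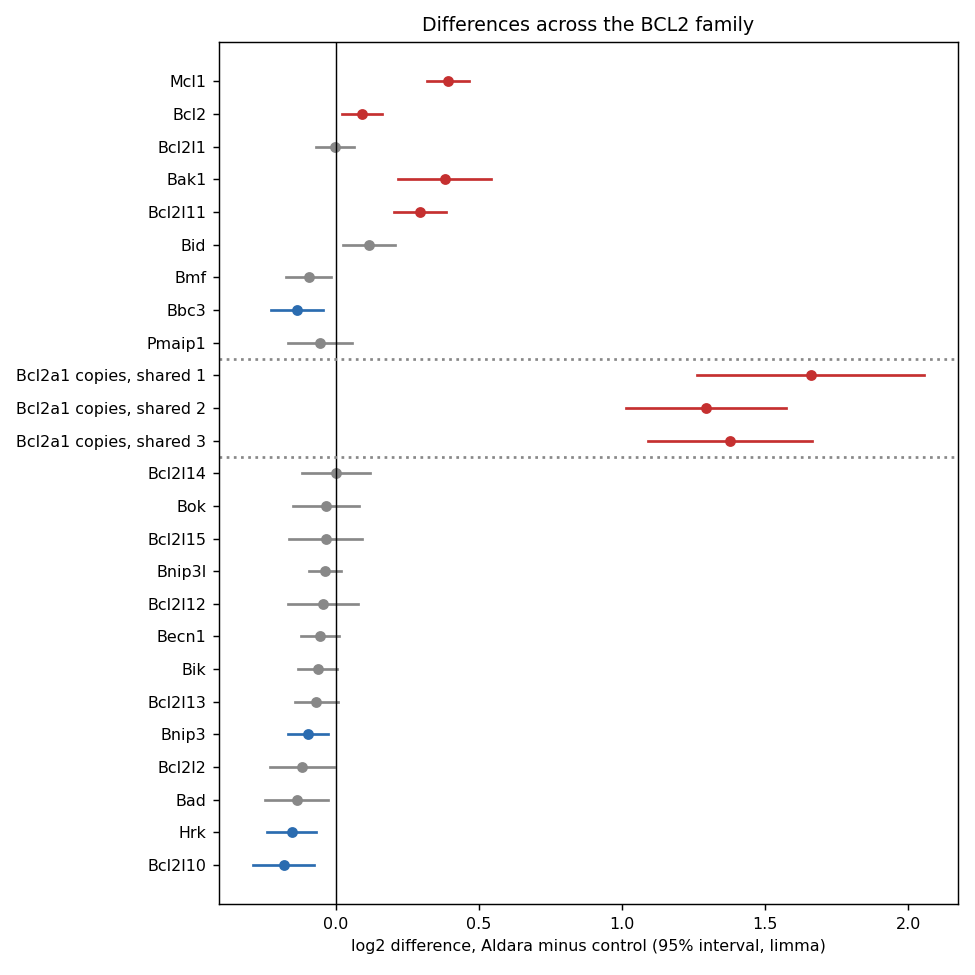
Log2 difference between Aldara and control mice (horizontal axis) with its 95% interval from limma, for 9 members (top), 3 probesets shared by the Bcl2a1 copies (middle) and 13 further relatives (bottom). Red marks genes called higher, blue marks genes called lower and grey those that did not pass. The Bcl2a1 probesets lie between 1.29 and 1.66, to the right of every other gene.

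Genes that feed into BID showed some of the largest differences near the family. Death receptors of the TNF family assemble FADD and caspase-8, which cuts BID, and CFLAR (c-FLIP) restrains caspase-8. Of 8 measured genes, 4 were higher and none was lower, next to 12.4% higher and 21.0% lower over all probesets. Casp8 went from 7.18 to 7.46 in control mice up to 9.12 to 9.39 in Aldara-treated mice, a log2 difference of 1.96 (standard error 0.069, adjusted p = 1.1e-09 from limma) or 3.90-fold (95% interval 3.51 to 4.33). Tnfrsf1a, the TNF receptor with a death domain, was higher by 0.84 (standard error 0.041), Cflar by 0.59 (standard error 0.072) on its brightest probeset and by 0.42 and 0.26 on the other two, and Fadd by 0.19 (standard error 0.041). Fas, Fasl, Tradd and Tnfrsf10b did not pass, with differences of 0.020 to 0.15. Ripk1 was not analysed here. The median of the 8 was 0.17.

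Downstream of the mitochondrial step, the differences were small. Released cytochrome c binds APAF1 and activates caspase-9, which cuts further caspases. Of 14 measured genes of this step and of the VDAC channels of the outer membrane, 5 were higher and 2 lower, with a median of 0.033. The shares over all probesets were 12.4% higher and 21.0% lower. Casp6, a caspase that acts late in the cascade, had 7.35 to 7.60 in control mice and 7.67 to 7.87 in Aldara-treated mice, a log2 difference of 0.35 (standard error 0.051, adjusted p = 2.9e-04 from limma). Apaf1 was higher by 0.22 (standard error 0.060), Vdac3 by 0.12 (standard error 0.036), Cycs, the cytochrome c gene, by 0.12 (standard error 0.039) and Vdac2, whose product holds BAK, by 0.092 (standard error 0.026). Dffa, the inhibitor of the nuclease that cuts DNA in apoptosis, was lower at -0.13 (standard error 0.040), and Vdac1 at -0.11 (standard error 0.027). Casp9, Casp2, Diablo, Htra2, Endog, Aifm1 and Dffb did not pass. With centred arrays 2 genes of this list were higher and 5 lower, and with the median difference set to 0 the counts were 6 and 0, Dffa (adjusted p = 0.12) and Vdac1 (adjusted p = 0.086) being lost. Leaving out 1 array, Cycs was called in 2 of 10 fits, those without control replicate 2 or Aldara replicate 3, Vdac3 failed when control replicate 4 or 5 or Aldara replicate 4 was dropped (adjusted p up to 0.053), and Dffa without control replicate 1 or Aldara replicate 3 (adjusted p up to 0.057). The other probesets of Cycs had differences of 0.11 and -0.077, and that of Vdac2 one of 0.015, none of which passed.

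Inhibitors of apoptosis, the proteins with BIR domains that act on caspases or signalling complexes, were higher for 5 of 9 measured genes and lower for none. Over all probesets, 12.4% were higher and 21.0% lower. Naip2, Naip5 and Naip6 among these 5 are close relatives, so they may not count as separate signals. Naip2, which despite its family name is known as a sensor of bacterial secretion proteins in macrophages, had 6.65 to 6.98 in control mice and 8.51 to 9.04 in Aldara-treated mice, a log2 difference of 1.99 (standard error 0.10, adjusted p = 3.5e-08 from limma). Its near copies Naip5 and Naip6, which sense flagellin, were higher by 1.21 (standard error 0.066) and 1.01 (standard error 0.087), and RNA of such close relatives may bind each other's probes. Birc3 (cIAP2), an NF-kB target that acts on TNF receptor complexes, was higher by 0.58 (standard error 0.057), and Birc5 (survivin), a gene of dividing cells, by 0.23 (standard error 0.036). Xiap, the direct inhibitor of caspases, Birc2, Birc6 and Birc7 did not pass, with differences of -0.095 to 0.054. The 5 genes that were higher were called in each of the 10 fits that left out 1 array.

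The p53 pathway, which induces Bbc3, Pmaip1 and Bax, was mixed. Of 12 measured genes other than members, 4 were higher and 1 lower, with a median log2 difference of 0.055. The shares over all probesets were 12.4% higher and 21.0% lower. Sesn2, a stress-induced regulator of growth signalling, was higher by 0.21 (standard error 0.045, adjusted p = 0.0031 from limma), Phlda3, an inhibitor of AKT, by 0.16 (standard error 0.041), Mdm2, the ligase that degrades p53, by 0.15 (standard error 0.040) and Ccng1 by 0.11 (standard error 0.035), while Zmat3 was lower at -0.17 (standard error 0.039). Trp53inp1, Gadd45a, Sesn1, Perp, Aen, Eda2r and Pidd1 did not pass, and Trp53 was not analysed here. Cdkn1a, the cell cycle inhibitor p21, shares its probeset with 4930567H12Rik. That probeset had 8.76, 9.02, 8.91, 8.77 and 8.99 in control replicates 1 to 5 and 9.58, 9.46, 9.41, 9.46 and 9.97 in Aldara replicates 1 to 5, a log2 difference of 0.68 (standard error 0.097, adjusted p = 2.2e-04 from limma). With centred arrays 2 genes of the list were higher, and with the median difference set to 0 there were 6, with 1 lower in both. Ccng1 was called in 3 of 10 fits that left out 1 array, those without control replicate 1 or 5 or Aldara replicate 3, with an adjusted p of up to 0.090 in the others.

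Factors that act on BH3-only genes or on MCL1 itself moved in both directions. Of 14 measured genes, 2 were higher and 5 lower, next to 12.4% higher and 21.0% lower over all probesets. Ddit3, which encodes the stress factor CHOP, was higher by 0.43 (standard error 0.069, adjusted p = 5.5e-04 from limma), with 8.36 to 8.60 in control mice and 8.79 to 9.12 in Aldara-treated mice, and Atf4, which acts before it, by 0.16 (standard error 0.030). Foxo3, a transcription factor known to induce Bcl2l11 and Bbc3, was lower at -0.17 (standard error 0.032), with 9.51 to 9.59 against 9.34 to 9.47. Huwe1 and Fbxw7, which encode ubiquitin ligase components that send MCL1 to the proteasome, were lower at -0.13 (standard error 0.025) and -0.15 (standard error 0.024), and so were Btrc, another ligase component, at -0.067 (standard error 0.024) and the kinase gene Pim2 at -0.14 (standard error 0.047). The dimmer probeset of Fbxw7 had a difference of 0.12 and did not pass. Foxo1, Foxo4, Trib3, Usp9x, Pim1, Pim3 and Bag3 did not pass. With the median difference set to 0, the list had 4 genes higher and 3 lower, and with centred arrays 2 higher and 7 lower. Btrc was called in 1 of 10 fits that left out 1 array (that without Aldara replicate 2) and Pim2 in 4 (those that dropped replicate 3 or 4 of the control or 2 or 3 of the Aldara group), with an adjusted p of up to 0.11 and 0.090 in the others.

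**Figure D4:**
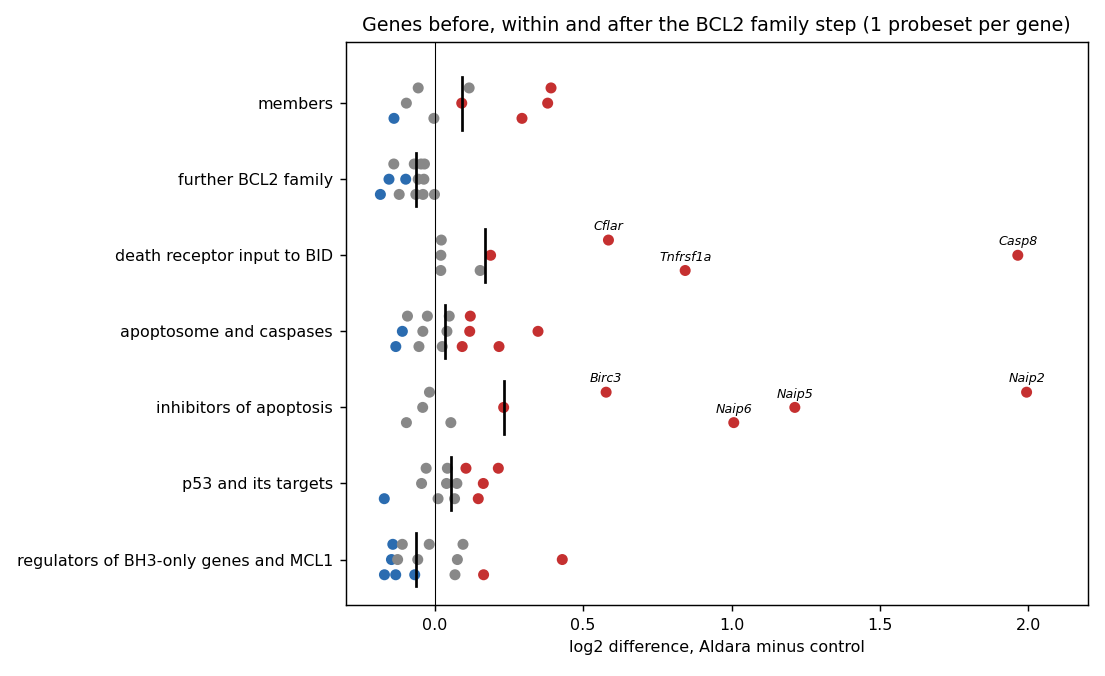
Log2 difference between Aldara and control mice (horizontal axis) for the genes of each list, 1 point per gene, spread vertically for legibility. Red points were called higher, blue points lower and grey points did not pass, and black lines give the median of each list. Casp8 and Naip2 lie near 2, while all members lie between -0.14 and 0.39.

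Genes with a pattern like that of the members of smallest p were found by Pearson correlation of log2 values over the 10 arrays, given as a description. For Mcl1 the 3 closest were Sat1 (r = 0.998), Adam17 (r = 0.992) and Lipa (r = 0.992), with log2 differences of 0.99, 0.68 and 0.91. For Bcl2l11 they were Tnfrsf14 (r = 0.988), S1pr3 (r = 0.984) and Tlr9 (r = 0.982), with log2 differences of 0.32, 0.60 and 1.21. The arrays fall into 2 groups, and 1370 probesets had an r above 0.9 with Mcl1 and 1023 with Bcl2l11, so such values are common here. After the group means were subtracted, the closest to Mcl1 were Nup153 (r = 0.971), Dnajc13 (r = 0.971) and Osbpl9 (r = 0.960). The closest to Bcl2l11 were then D230025D16Rik (r = 0.932), Ifi30 (r = 0.931) and Tnfrsf14 (r = 0.927). In this second search 29 probesets had an r above 0.9 with Mcl1 and 14 with Bcl2l11. These are the best of 21789 probesets over 10 arrays, and whether such values exceed chance was not tested.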

How the data were processed

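RNA from 10 perfused whole brains, 5 per group, was hybridised to Affymetrix GeneChip Mouse Gene 1.0 ST arrays, 1 array per mouse. The authors deposited log2 values made with RMA in GeneSpring GX, which corrects background, quantile-normalises the arrays and summarises each probeset. The GeneSpring version and library file are not given in the sources used here. No scanner values were used here, so signal over background is unknown, and the number of arrays limits the precision. Symbols came from the platform annotation, in which 21789 probesets had 1 symbol, 1621 several and 5446 none.

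The 23410 probesets with a symbol were tested with limma 3.58.1 (lmFit and eBayes, R 4.3.3) on group alone. Where a gene had several probesets of 1 symbol, the brightest on average over both groups was used. Intervals are 95% intervals from the same fit. The methods used an unpaired t-test, run here as an alternative. The test was checked on simulated data. The members, lists and motifs were chosen with earlier results of these data known. Named genes are all members, the members of each list that passed, and the 3 genes most like each of the 2 members with the smallest p. Genes that did not pass, Bcl2a1c and single markers were named after their values were seen. The planned difference between Bax and Bcl2 could not be formed. Alternatives were 3 other scalings, other sets of tested probesets, a filter on dim probesets, a robust prior with an intensity trend, the t-test, array weights, the replicate block, averaged probesets, unlogged means, the exact test and leaving out each array. Promoter sequences are from RefSeq, GRCm38.p6.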

Additional observations from a re-analysis of the deposited data

Results flagged for a closer look

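In 88 groups of 5 arrays (the members, the listed genes that passed and the shared probesets of Bcl2a1 and Cdkn1a), 4 held a value far from the other 4 by Dixon's test, where chance gives about 1 in 20. None was a value of a member. Cycs had 12.48 in Aldara replicate 3 against 12.64 to 12.66 in the other treated mice, Casp6 had 7.60 in control replicate 5 against 7.35 to 7.42 in the other control mice, Dffa had 9.36 in Aldara replicate 3 against 9.46 to 9.49, and Tnfrsf1a had 8.48 in Aldara replicate 4 against 8.54 to 8.56.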

How the results depend on the processing

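Mcl1, Bak1 and Bcl2l11 were called higher in every fit run on them, whereas the calls of Bcl2 and Bbc3 and the misses of Bid and Bmf depended on the scaling, the probesets tested or single arrays, and the causes were not tested beyond that. The counts of higher and lower calls are given for each setting that moved them by over 1.5 times. After centring, with every array shifted to 1 median, 9606 of all probesets were lower, and so were 2 members, 9 further relatives, 5 genes of the apoptosome list and 1 inhibitor of apoptosis, while 2 genes of the apoptosome list and 2 of the p53 list were higher. With quantile normalisation 2 members and 5 further relatives were lower. With the median difference set to 0, 2760 of all probesets were lower, as were 0 members, 0 further relatives, 0 genes of the apoptosome list and 3 regulators, and 4 regulators were higher. Among the brighter probesets, which hold 3 of the members, 2 members were higher and 0 lower, with 3 genes of the apoptosome list, 0 inhibitors of apoptosis and 1 death receptor gene higher, since fewer genes were tested. With a gene's probesets averaged, 3 genes of the apoptosome list were higher. Leaving out each array gave 3 to 4 members higher and 0 to 2 lower, 3 to 5 genes of the apoptosome list higher and 1 to 3 lower, 2 to 4 further relatives lower and 3 to 6 regulators lower. The difference of Bcl2l1, which passed in none of its fits and was lowest, at -0.024, without control replicate 2, turned to 0.038 with the median difference set to 0, and to 0.0080, 0.0075, 0.0049 and 0.00097 without control replicate 4, control replicate 5, Aldara replicate 1 and Aldara replicate 2. Same-numbered arrays correlated at -0.11 to 0.25 after the group means were removed, and 2 of 5 control arrays correlated best with their own number. Whether the replicate numbers pair the samples was not tested. With the replicate number as a block, 3 members were higher and 1 lower, Bcl2 being lost, and 3 genes of the apoptosome list were higher. The methods' t-test called 4 members higher and 1 lower.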
